A study of Mus musculus with 18 samples.

Results

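Cultured iPax3 cells, muscle progenitors of mouse derived from a pluripotent stem cell line, and satellite cells of adult mouse muscle were compared by droplet single-cell RNA sequencing, with 1 library on each side. A barcode counted as a cell when its total of unique molecular identifiers (UMIs, each marking 1 captured RNA molecule) reached 10% of a reference total, with at least 500 UMIs and under 10% of UMIs from mitochondrial genes. The reference total was the 99th percentile among the top 3000 barcodes of the matrix. This rule kept 579 adult cells and 2931 iPax3 cells, 3510 in all. Over all 3 single-cell matrices of the series the rule gives 6930 barcodes, which are not distinct cells, since the third matrix repeats barcodes of both libraries. The adult cells came from the tibialis anterior, a hindlimb muscle, of 3-month-old mice carrying a Pax7-ZsGreen reporter, in which a green fluorescent protein is read out from Pax7; the labels call tissue-derived cells freshly sorted and do not give the gate. The iPax3 cells, labelled ES-derived, began as Vcam1+Flk1- cells sorted from embryoid bodies and were then cultured for 3 passages with doxycycline and bFGF, so dissociated tissue was set against a growing culture. Tissue of origin, culture, age and library cannot be told apart in this design. The question the comparison addresses is how far a progenitor grown in a dish matches the resident stem cell of muscle. No p-value is given for any difference, because neither side has a replicate, and every interval covers counting error only.

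Satellite cells lie beneath the basement membrane of the muscle fibre and are mostly quiescent until injury, when they re-enter the cell cycle and supply new myonuclei. Pax7 marks and maintains them, Pax3 plays the corresponding role in migrating embryonic progenitors, and the basic helix-loop-helix factors Myf5 and Myod1 commit cells to muscle before Myog starts terminal differentiation. Satellite cells are known to respond to dissociation within minutes by transcribing immediate early and heat shock genes.

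The adult cells held a median of 10765 UMIs and 2179 genes, and the iPax3 cells 11716 UMIs and 2312 genes. The summed depth was 7906996 UMIs in adult cells, 90.5% of their matrix, and 41625326 in iPax3 cells, 66.0% of theirs. Levels below are UMIs summed over cells and scaled to a total of 1000000 (CPM). A total of 3 UMIs, the limit that a count of 0 allows, corresponds to 0.379 CPM in adult and 0.0721 CPM in iPax3 cells. Shares of cells were also taken after each cell had been thinned to 4600 UMIs, which kept 521 adult and 2925 iPax3 cells and left out 58 and 6. Thinned cells had a median of 1274 genes in adult and 1303 in iPax3, and the 2 libraries shared 1 cell barcode. Beside the cells stand empty droplets, barcodes with 1 to 50 UMIs, as a guide to the free RNA of the same library. They are not a pure measure of it, since some transcripts abundant in the other library exceeded their level in cells. The matrix gene Dcn was at 27.1 CPM in iPax3 empty droplets and 0.144 CPM in iPax3 cells. The cell cycle inhibitor gene Cdkn2a was at 14.9 CPM in adult empty droplets and 0.379 CPM in adult cells. The source of these UMIs was not tested.

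Markers of several cell types sat together in nearly every adult cell. At 4600 UMIs a cell, adult cells held a median of 11 endothelial marker UMIs with a lowest value of 3, of 11 fibroblast marker UMIs with a lowest of 2, and of 15 macrophage and leukocyte marker UMIs with a lowest of 3. Muscle progenitor markers had a median of 5. UMIs of all 4 lists occurred in 578 of 579 adult cells (99.8%) and in 116 of 2931 iPax3 cells (3.96%) at full depth. At 4600 UMIs they occurred in 517 of 521 adult cells (99.2%) and in 0 of 2925 iPax3 cells, where a count of 0 allows up to 0.103% of cells with such UMIs at that depth and says nothing of deeper cells. The MHC class II chaperone Cd74, a gene of antigen-presenting cells, had a UMI in all 579 adult cells, and the endothelial fatty acid carrier Fabp4 in 99.7% of them.

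The summed level of these lists was about the same in adult cells and in the empty droplets of that library. It was 2963 against 2725 CPM for 16 endothelial markers, 3887 against 3396 for 14 macrophage and leukocyte markers, 2989 against 3742 for 14 fibroblast markers and 1243 against 1364 for 12 muscle progenitor markers. Every marker of these 4 lists had a UMI in the adult library. Of 3692 genes with at least 20 CPM in adult cells or their empty droplets, 95.9% lay within 2-fold between them. In the iPax3 library 98.3% of 3644 genes did so, while its endothelial, fibroblast and macrophage lists summed to 70.2, 73.7 and 7.01 CPM in cells. There the endothelial genes Emcn, Tek, Tie1, Kdr and Cldn5 and the leukocyte genes Ptprc, Cd52, C1qa, C1qc, Tyrobp and Adgre1 were at 0 UMIs. The presence of these markers therefore did not separate the adult barcodes into satellite cells and other cell types. By amount, a few barcodes did stand out. Among 521 thinned adult cells, 20 passed 5 times the median of fibroblast markers, 14 that of endothelial and 7 that of macrophage markers. These barcodes were not removed, and all barcodes kept from this library are called adult cells below. How much of each adult level came from RNA of other cells was not tested.

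**Figure D1:**
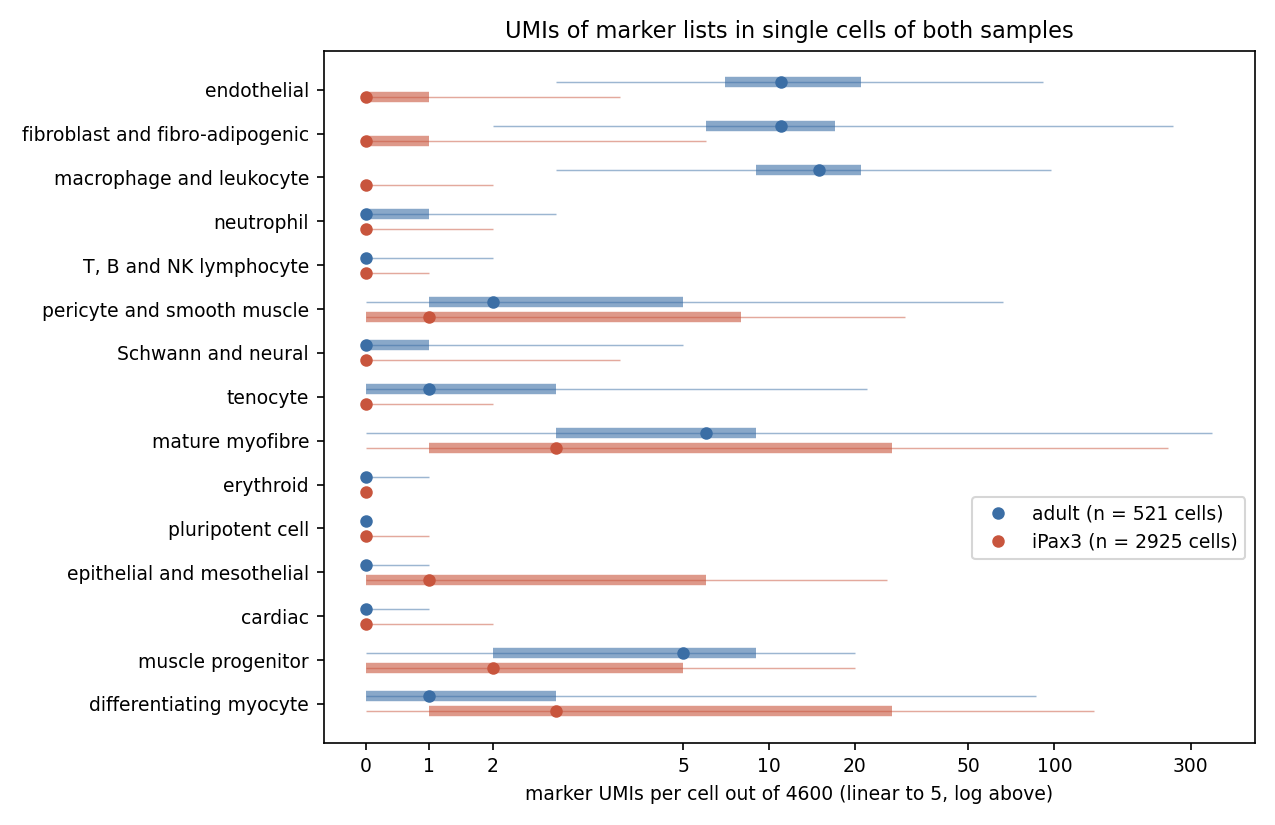
UMIs of 15 marker lists in each cell at 4600 UMIs, for 521 adult and 2925 iPax3 cells (points: medians; thick bars: 10th to 90th percentile; thin lines: full range; axis linear to 5 and logarithmic above). Endothelial, fibroblast and macrophage markers have medians of 11, 11 and 15 in adult cells and 0 in iPax3 cells, where the myofibre and myocyte lists reach from 1 to 27 between those percentiles.

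A further matrix labelled as a second iPax3 sample was not used as a replicate. Its barcodes carry 1 of 2 suffixes. Of its 1520821 gene-by-barcode entries with suffix 1, 100% were also in the adult matrix, none with a larger value, and 577 of 590 cells with that suffix were adult cells. Those with suffix 2 held 99.94% of the entries of the first iPax3 matrix at a median of 39956 UMIs a cell, and all 2931 iPax3 cells were among its 3327 cells. The matrix thus held the same barcodes with more UMIs for iPax3 and fewer for adult cells, and it is used only to show what depth does to a value. The 590 and 3327 cells come from the rule applied to each suffix alone. Applied to the whole matrix, the rule kept 3420 cells, of which 93 carried suffix 1. Values for the second matrix as labelled therefore include these 93 on the iPax3 side.

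Across 4472 genes with at least 20 CPM in the higher sample, 1460 (32.6%) were at least 2-fold higher in iPax3 cells and 1172 (26.2%) at least 2-fold higher in adult cells, with a median log2 ratio of 0.26. These shares are the background against which each gene group below is read. The median over the 2227 genes with at least 20 CPM in both samples was 0.20, and taking that as the zero point gave 1286 and 1287 genes. Of the genes past 2-fold, 55.5% were on the iPax3 side. That share was 69.4% with the suffix 2 barcodes in place of the first iPax3 matrix (2165 and 954 of 5010 genes), 69.3% with the second matrix as labelled (2132 and 943 of 4987) and 69.6% for suffix 2 against suffix 1 (2157 and 940 of 4998). Counting every gene with at least 1 UMI gave 4500 and 6837 of 17806, with iPax3 at 39.7%.

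**Figure D2:**
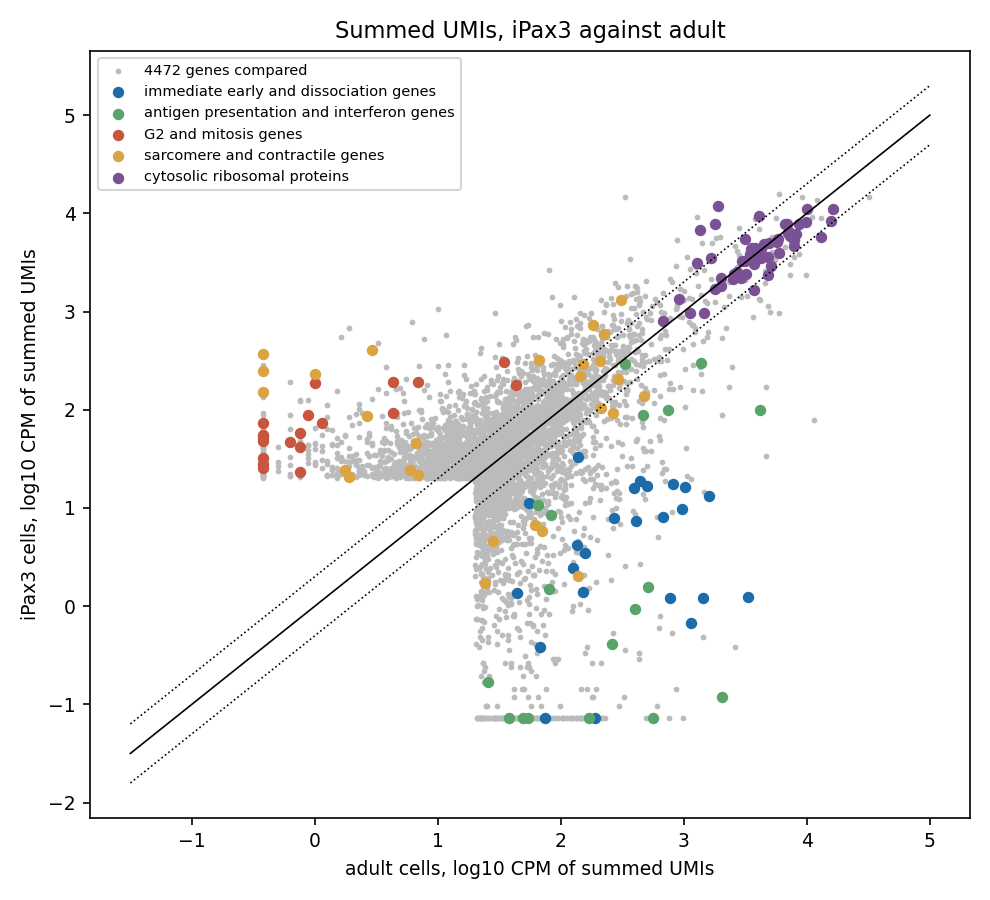
Summed CPM in iPax3 cells against adult cells for 4472 genes, both axes in log10 with genes under 3 UMIs set at that limit (solid line: equal; dotted lines: 2-fold). Immediate early and antigen presentation genes lie under the line, G2 and mitosis genes above it, and most of the 57 ribosomal protein genes between the dotted lines.

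The regulators that define the lineage were split between the samples. Pax7 (ENSMUSG00000028736, GRCm38 chromosome 4, 139737062 to 139833528), the defining satellite cell factor, stood at 146 CPM in adult cells and at 0.048 CPM, from 2 UMIs, in iPax3 cells. The adult level was 3048-fold higher (95% interval 842 to 25199, exact binomial, as are all intervals of folds). A Pax7 UMI was present in 74.4% of adult cells (70.7 to 77.9%, exact Clopper-Pearson, as are all intervals of shares) and in 2 of 2931 iPax3 cells. At 4600 UMIs the adult share was 44.7%. The adult empty droplets held Pax7 at 183 CPM, above the level in cells.

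Pax3 (ENSMUSG00000004872, chromosome 1, 78101267 to 78197134), the factor after which iPax3 cells are named, ran the other way, at 3.29 CPM in adult and 164 CPM in iPax3 cells, 50-fold higher (34.1 to 76.6). It had a UMI in 4.32% of adult cells and 76.7% of iPax3 cells, and in 1.34% and 48.5% at equal depth. UMIs of an introduced Pax3 copy and of the cell's own gene were not distinguished in these counts. The iPax3 empty droplets held Pax3 at 154 CPM, near the level in cells. The 3 bulk iPax3 libraries of the series gave 349, 360 and 288 CPM of Pax3 and 0.284, 0.194 and 0.155 CPM of Pax7. In these bulk values fewer cells of a type and less RNA per cell cannot be told apart.

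The determination factor Myf5 (ENSMUSG00000000435, chromosome 10, 107482908 to 107486134) stood at 43.9 CPM in adult and 14.1 CPM in iPax3 cells, 3.11-fold higher in adult (2.72 to 3.56). Its log2 ratio of -1.64 came to -0.89 with the second matrix as labelled and -0.91 with its suffix 2 barcodes, both under 2-fold. It was present in 37.1% and 15.9% of cells, and in 17.5% and 5.78% at equal depth. Myod1 (ENSMUSG00000009471, chromosome 7, 46376474 to 46379099), which drives commitment and activation, stood at 216 and 26.4 CPM, 8.19-fold higher in adult cells (7.58 to 8.84), and its adult level was above the 155 CPM of the empty droplets. Pax7 and Myod1 occurred together in 56.6% of adult cells, and in 22.3% at equal depth. At that depth Pax7 had a UMI in 46.2% of adult cells with a Myod1 UMI and in 43.3% of those without. Myog (ENSMUSG00000026459, chromosome 1, 134289989 to 134292548), the differentiation factor, was at 5.31 CPM in adult and 124 CPM in iPax3 cells, 23.3-fold higher in iPax3 (17.2 to 32.3). It was present in 5.18% of adult and 51.8% of iPax3 cells, with 152 CPM in the iPax3 empty droplets. These shares were larger at greater depth: in the suffix 2 barcodes, Myf5 had a UMI in 53.4%, Myod1 in 68.9% and Myog in 96.4% of cells.

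**Figure D3:**
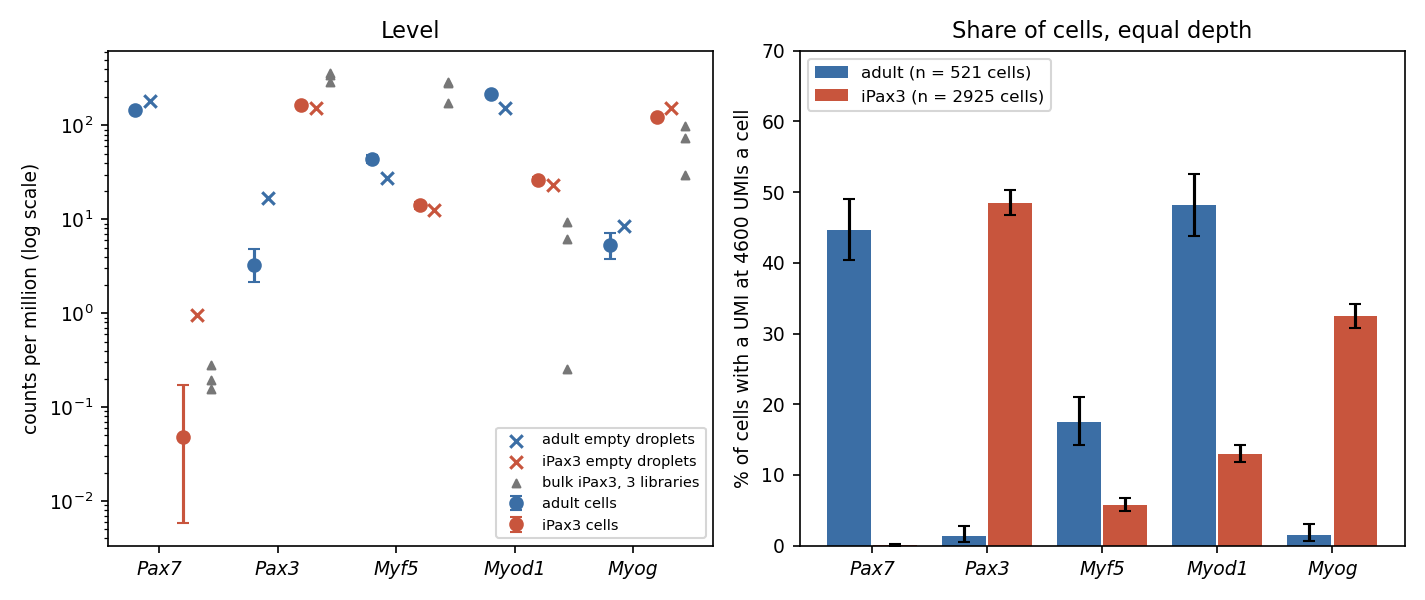
Left: level of 5 regulators in CPM on a log axis, in cells (circles, with 95% counting intervals), in empty droplets (crosses, where above 0) and in 3 bulk iPax3 libraries (triangles). Right: share of cells with a UMI at 4600 UMIs a cell, with 95% intervals, where Pax7 is at 44.7% in adult and 0.0342% in iPax3 cells and Pax3 at 1.34% and 48.5%.

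Among all 26 myogenic regulators listed, 24 were in the matrices and 12 were compared, of which 4 were higher in iPax3 and 5 in adult cells, with a median log2 ratio of -0.09. The sign of that median was not stable, at -0.29 under median-of-ratios scaling and 0.32 with the second matrix as labelled. The myocyte enhancer factor Mef2c (20.1 against 121 CPM) and the transcriptional cofactor Eya2 (1.64 against 23.9 CPM) joined Pax3 and Myog on the iPax3 side. The repressor Msc, also known as MyoR, was at 24.8 CPM in adult and 0.0961 CPM in iPax3 cells, 258-fold higher in adult (99.2 to 956).

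Genes of dividing cells were higher in iPax3 cells. Of 25 G2 and mitosis genes, 19 were compared and all 19 were higher in iPax3 cells, with a median log2 ratio of 6.20. The inhibitor of apoptosis and mitotic passenger Birc5 was at 1.01 CPM in adult and 186 CPM in iPax3 cells (184-fold, 93.2 to 426). The spindle protein gene Nusap1 was at 0.126 CPM, from 1 UMI, and 72.6 CPM (574-fold, 103 to 22666). Mki67 or Top2a, a proliferation antigen and a mitotic topoisomerase, had a UMI in 6.22% of adult and 78.2% of iPax3 cells, and in 3.07% and 56.5% at equal depth. Ccnb1, which encodes cyclin B1, had 0 UMIs in adult cells and 48.1 CPM in iPax3 cells, at least 127-fold higher. The related cyclin gene Ccnb2 stood at 0.379 CPM, from 3 UMIs, and 55.5 CPM (146-fold, 50 to 710). The kinase Plk1 was at 0.253 CPM, from 2 UMIs, and 28.0 CPM (111-fold, 30.6 to 916).

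Since these genes lay on 1 side together, promoters are shown for 4 of the 6 members with the largest ratios, chosen to include genes with and without the motifs searched. The 200 bases before the annotated start are given 5′ to 3′ on the gene's own strand, from RefSeq on GRCm38.p6. Capitals mark CCAAT, the box bound by NF-Y, and TTTGAA, the core of the cell cycle homology region, with both strands searched. The 2 motifs do not overlap in these stretches.
Ccnb1, chr13:100786487-100786686, minus strand: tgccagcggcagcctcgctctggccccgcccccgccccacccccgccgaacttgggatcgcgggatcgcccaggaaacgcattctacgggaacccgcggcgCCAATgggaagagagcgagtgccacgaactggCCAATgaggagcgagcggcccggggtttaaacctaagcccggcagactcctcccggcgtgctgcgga
Ccnb2, chr9:70421555-70421754, minus strand: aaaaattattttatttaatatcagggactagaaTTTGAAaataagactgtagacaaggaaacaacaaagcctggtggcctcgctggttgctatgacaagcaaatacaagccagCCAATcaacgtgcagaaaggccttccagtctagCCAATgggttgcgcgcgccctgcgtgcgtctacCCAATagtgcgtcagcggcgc
Plk1, chr7:122159235-122159434, plus strand: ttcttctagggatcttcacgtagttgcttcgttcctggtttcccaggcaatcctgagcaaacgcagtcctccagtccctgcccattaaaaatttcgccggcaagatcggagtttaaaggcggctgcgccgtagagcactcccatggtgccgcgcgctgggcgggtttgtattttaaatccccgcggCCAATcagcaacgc
Nusap1, chr2:119618098-119618297, plus strand: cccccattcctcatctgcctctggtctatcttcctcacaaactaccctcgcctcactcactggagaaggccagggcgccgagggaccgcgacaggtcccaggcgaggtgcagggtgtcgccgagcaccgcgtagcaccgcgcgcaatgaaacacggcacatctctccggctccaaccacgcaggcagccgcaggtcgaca
Ccnb2 carried CCAAT 87, 54 and 21 bases before its start and TTTGAA at 167. Ccnb1 carried CCAAT at 99 and 67, Plk1 carried it at 14, and neither motif was in the stretch of Nusap1. Of the 25 genes of the list, 22 matched the promoter table, and 18 of these (81.8%) had CCAAT on either strand within 250 bases before a start, against 37.5% of all 27025 genes in the table. TTTGAA was found in 8 of the 22 (36.4%) and in 18.3% of all genes. These matches describe the letters in the window and show no binding.

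S phase genes were also mostly higher in iPax3 cells, 15 of 17 compared with 1 higher in adult, at a median log2 ratio of 2.68. The cyclins of S phase entry had the largest ratios of the list, with Ccne2 at 0.126 CPM, from 1 UMI, against 66.6 CPM (527-fold, 94.5 to 20820). Ccne1 had 0 UMIs in adult cells and 46.0 CPM in iPax3 cells, at least 121-fold higher. The exception was the sliding clamp gene Pcna, at 37.6 CPM in adult and 15.9 CPM in iPax3 cells. The replication-coupled histone gene Hist1h2ap was at 1.90 and 684 CPM, 361-fold higher in iPax3 (219 to 644). In bulk iPax3 libraries this gene averaged 0.0462 ± 0.0524 CPM (SD, n = 3). The kits of the bulk and droplet libraries differ, so these levels are set side by side only.

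Of 16 genes for G1 cyclins, their kinases and kinase inhibitors, 9 were compared, 7 higher in iPax3 and 0 in adult cells, at a median log2 ratio of 3.33. The tumour suppressor gene Cdkn2a (INK4A and ARF) stood at 0.379 CPM, from 3 UMIs, in adult and 354 CPM in iPax3 cells (933-fold, 319 to 4524), and 74.9% of iPax3 cells had a UMI at equal depth. Its neighbour Cdkn2b was at 1.64 and 33.4 CPM. Ccnd1 (33.1 and 334 CPM), Ccnd2 (43.0 and 514 CPM) and Cdk6 (1.14 and 43.2 CPM), which promote G1 exit, were higher in iPax3 cells as well. The stress-responsive inhibitor Cdkn1a stood at 1160 and 729 CPM, within 2-fold, in 99.2% and 92.6% of cells at equal depth.

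Contractile genes lay on both sides. Of 43 sarcomere and contractile genes, 27 were compared, 15 higher in iPax3 and 8 in adult cells, at a median log2 ratio of 1.63. The largest ratios on the iPax3 side were in embryonic, slow or cardiac forms. The slow troponin C gene Tnnc1 was at 0.126 CPM, from 1 UMI, and 373 CPM (2953-fold, 530 to 116655), and embryonic myosin Myh3 at 0.126 CPM, from 1 UMI, and 153 CPM (1206-fold, 216 to 47658). Slow troponin I (Tnni1) had 0 UMIs in adult cells and 251 CPM in iPax3 cells, at least 661-fold higher. Cardiac troponin T (Tnnt2) stood at 1.01 and 233 CPM and cardiac actin (Actc1) at 2.91 and 407 CPM. Some genes of fast fibres were on this side too, with the light chain Mylpf at 183 and 735 CPM and the calcium pump Atp2a1 at 6.96 and 21.6 CPM. The calcium release channel gene Ryr1 stood at 5.94 and 24.6 CPM.

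The adult side held Ckm, Myoz1, Tcap, Mb, Actn3, Des, Tnni2 and Tpm3. Muscle creatine kinase (Ckm) was at 139 and 2.02 CPM, 69.1-fold higher in adult cells (55.3 to 87.3), with 238 CPM in the adult empty droplets. Titin cap (Tcap) was at 69.7 and 5.77 CPM, myoglobin (Mb) at 61.1 and 6.75 CPM, and the fast Z-disc gene Actn3 at 27.9 and 4.56 CPM. The 15 mature myofibre markers summed to 1508 CPM in adult cells, 2056 CPM in their empty droplets and 1702 CPM in iPax3 cells, and Myh2 was at 0 in adult cells. The part of fibre RNA in these differences was not tested.

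Several genes outside muscle marked iPax3 cells. The simple-epithelium keratin gene Krt8 had 0 UMIs in adult cells and 284 CPM in iPax3 cells, at least 749-fold higher, and was found in 50.5% of iPax3 cells at equal depth. Its partner Krt18 stood at 0.632 and 192 CPM (303-fold, 130 to 933), and the mesothelial antigen Msln at 2.02 and 70.5 CPM. The desmosomal gene Dsp and, outside the list, the junctional p53 target Perp had 0 UMIs in adult cells and 31.3 and 138 CPM in iPax3 cells, at least 82.6-fold and 364-fold higher. Of 23 epithelial and mesothelial genes, 6 were compared, 4 higher in iPax3 and 1 in adult cells. The list's Cdh1, Wt1 and Esrp1 were at 0 UMIs in both samples, and Epcam was at 0.120 CPM in iPax3. Of 16 pluripotency genes none reached 20 CPM in either sample, and Nanog and Sox2 had 0 UMIs in both.

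Growth-related imprinted and oncofetal genes were largely on the iPax3 side, 10 of 15 imprinted genes compared (3 in adult) and 6 of 8 oncofetal genes (1 in adult), with medians of 2.23 and 1.77. The noncoding RNA H19 was at 9.99 and 1053 CPM (105-fold, 84.6 to 133), and Igf2, from the same imprinted domain, at 20.4 and 95.3 CPM. Mest stood at 11.6 and 576 CPM, Nnat at 1.64 and 553 CPM, and the zinc finger gene Plagl1 at 22.6 and 428 CPM. The chromatin factor gene Hmga2 had 0 UMIs in adult cells and 252 CPM in iPax3 cells, at least 663-fold higher, and the RNA-binding gene Igf2bp1 was at 0.126 CPM, from 1 UMI, and 42.0 CPM (332-fold, 59.5 to 13122). The 3 imprinted genes on the adult side were the noncoding Meg3 at 2039 and 539 CPM, the adaptor Grb10 at 45.9 and 2.23 CPM and the IGF2 receptor Igf2r at 26.3 and 6.63 CPM. H19, Igf2 and Peg3 stand in both lists. Hmga1, in contrast with Hmga2, was at 32.4 and 5.45 CPM.

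Immediate early genes and most heat shock genes were higher in adult cells. All 24 compared immediate early and dissociation genes, of 26 listed, were higher in adult cells, at a median log2 ratio of -5.88. The AP-1 subunit gene Fos was at 3345 CPM in adult and 1.23 CPM in iPax3 cells, 2730-fold higher in adult (2076 to 3667), and it had a UMI in all 579 adult cells and in 1.60% of iPax3 cells. Atf3, a stress-induced transcription factor, was at 1144 and 0.673 CPM (1701-fold, 1176 to 2561), and the mRNA-decay factor Zfp36 at 1421 and 1.20 CPM (1183-fold, 897 to 1595). The smallest difference in the list was in Jund, at 139 and 32.8 CPM. Adult empty droplets held Fos, Atf3 and Zfp36 at 3150, 1056 and 1805 CPM.

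Heat shock genes were higher in adult cells in 12 of 17 compared, with 1 higher in iPax3, at a median log2 ratio of -2.36. The inducible chaperone Hspa1a stood at 2587 and 0.384 CPM (6729-fold, 4143 to 11775), its co-chaperone Dnajb1 at 4652 and 33.7 CPM and Bag3 at 1137 and 19.6 CPM. The mitochondrial chaperone Hspa9 was the exception, at 68.7 and 158 CPM, and its partner Hspd1 was near equal at 275 and 285 CPM. Chemokines and cytokines followed the same side, 8 of 8 compared, with Cxcl1 at 626 and 0.601 CPM (1042-fold, 705 to 1611). Metallothionein and oxidative stress genes were mixed: of 22 listed, 20 were compared, 8 higher in adult and 4 in iPax3 cells, at a median log2 ratio of -0.63. On the adult side, extracellular glutathione peroxidase (Gpx3) reached 11502 CPM in adult and 79.5 CPM in iPax3 cells, and the heme oxygenase gene Hmox1 702 and 19 CPM. Macrophage and leukocyte markers were also higher in adult cells (3887 and 7.01 CPM summed over the list), and their part in these differences was not tested.

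Of 30 satellite cell and quiescence genes, 24 were compared, 20 higher in adult and 2 in iPax3 cells, at a median log2 ratio of -3.73. Chodl, which the tenocyte marker list also holds, was at 146 CPM in adult and 0.024 CPM, from 1 UMI, in iPax3 cells (6075-fold, 1088 to 240158). The sialomucin Cd34, which endothelial cells and fibroblasts also carry, stood at 145 and 0.048 CPM, from 2 UMIs in iPax3 (3009-fold, 831 to 24873), and Asb5 at 435 and 0.288 CPM (1509-fold, 863 to 2923). Less distant were the laminin receptor subunit Itga7 (35.2 and 2.11 CPM), the adhesion molecule Vcam1 (152 and 19.9 CPM) and desmin (Des, 471 and 138 CPM). The muscle cadherin Cdh15 did not reach 2-fold, at 56.5 and 66.5 CPM, with 21.5% and 26.5% of cells at equal depth. Empty droplets of the adult library held Pax7, Chodl, Cd34 and Asb5 at 183, 195, 153 and 410 CPM.

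Signalling genes were mostly higher in adult cells. Of 8 Notch pathway genes compared, 4 were higher in adult and 2 in iPax3 cells. The receptors Notch1 (41.2 and 10.8 CPM) and Notch3 (56.3 and 9.32 CPM) and the targets Hey1 (22.3 and 0.721 CPM) and Heyl (52.4 and 3.44 CPM) were on the adult side. The target Hes1 (65.4 and 295 CPM) and the related Hes6 (19.5 and 145 CPM), which opposes Hes1, were on the iPax3 side. Of 20 FGF receptor and feedback genes only 3 were compared. All 3 were higher in adult cells: the receptors Fgfr1 (211 and 15.6 CPM) and Fgfr4 (30.7 and 9.15 CPM) and the feedback inhibitor Spry1 (41.1 and 4.23 CPM).

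In the TGF-beta, BMP and activin list 8 of 11 genes compared were higher in adult cells. The BMP targets Id1 and Id3 were at 191 and 25.7 CPM and at 1397 and 154 CPM, and the ligand Bmp4 at 126 and 2.81 CPM. The single gene on the iPax3 side was myostatin (Mstn), the negative regulator of muscle growth, with 0 UMIs in adult and 144 CPM in iPax3 cells, at least 380-fold higher. Of 8 IGF axis genes compared, 5 were higher in adult cells and 1 in iPax3 cells. The adult side held Igfbp6 (615 and 5 CPM) and Igf1 (20.6 and 1.27 CPM). Of 22 Wnt list genes only 3 were compared. All 3 were higher in iPax3 cells, at 2.26-fold for Ctnnb1, 2.46-fold for Tcf7l2 and 2.81-fold for Tcf7l1. With only cells under 5% mitochondrial UMIs, Ctnnb1 and Tcf7l2 were under 2-fold, at log2 ratios of 0.93 and 0.95.

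Genes of later development were mostly on the adult side, as were the 2 compared Hox genes, a family tied to body position. In the nuclear factor I and fetal list 7 of 9 genes compared were higher in adult and 1 in iPax3 cells. The nuclear factor I genes, of which Nfix drives the fetal myogenic programme, were at 73.6 and 1.59 CPM for Nfix, 97.1 and 16.4 CPM for Nfib and 61.7 and 11.4 CPM for Nfia. Only 2 of 39 Hox genes reached 20 CPM. Hoxc10, a gene of the hindlimb, was at 61.5 CPM in adult with 0 UMIs in iPax3 cells, at least 853-fold higher in adult, and Hoxa7 was at 23.5 and 0.024 CPM, from 1 UMI in iPax3 (979-fold, 174 to 38881). Hoxb2, Hoxb4, Hoxb9 and Hoxd8 showed the reverse at low levels. They were at 2.04, 1.83, 3.82 and 3.48 CPM in iPax3 and 0, 0, 0.379 and 0.126 CPM in adult cells.

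Matrix and immune genes were higher in adult cells, where fibroblast and macrophage markers were found in nearly every cell. Of 30 fibrillar collagen and interstitial matrix genes, 22 were compared, 17 higher in adult and 2 in iPax3 cells, at a median log2 ratio of -3.95. The proteoglycan Dcn was at 858 and 0.144 CPM (5952-fold, 2733 to 16225), its relative Fmod at 140 CPM with 0 UMIs in iPax3 cells (at least 1946-fold), and collagen I (Col1a1) at 266 and 0.529 CPM. The 2 on the iPax3 side were Timp1 (29.6 and 95.5 CPM) and versican (Vcan, 3.04 and 21.5 CPM). In the basement membrane list 6 of 12 genes compared were higher in adult, among them the collagen VI genes Col6a1, Col6a2 and Col6a3, and Nid2 (2.15 and 27.4 CPM) and Col18a1 (9.11 and 73.4 CPM) were higher in iPax3 cells.

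Of 25 antigen presentation and interferon genes, 18 were compared and 17 were higher in adult cells, 0 in iPax3, at a median log2 ratio of -7.79. Cd74 stood at 2040 and 0.120 CPM (16982-fold, 7275 to 52307), and the MHC class II gene H2-Aa at 565 and 0.048 CPM, from 2 UMIs in iPax3 (11758-fold, 3253 to 97119). Its partner H2-Ab1, outside the list, was at 760 CPM with 0 UMIs in iPax3 cells (at least 10543-fold). Classical class I genes, which most tissue cells carry, were low in iPax3 cells too: H2-K1 was at 404 and 0.937 CPM and H2-D1 at 509 and 1.56 CPM, and beta-2-microglobulin (B2m) at 464 and 87.9 CPM. The adipokine gene Rarres2 was at 495 CPM in adult and 0.024 CPM, from 1 UMI, in iPax3 cells (20605-fold, 3696 to 814049). Vessel genes were close behind, with Aqp1 at 298 and 0.0961 CPM and the lymphatic chemokine Ccl21a and the capillary lipase anchor Gpihbp1 at 218 and 200 CPM with 0 UMIs in iPax3 cells, at least 3024-fold and 2771-fold higher.

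**Figure D4:**
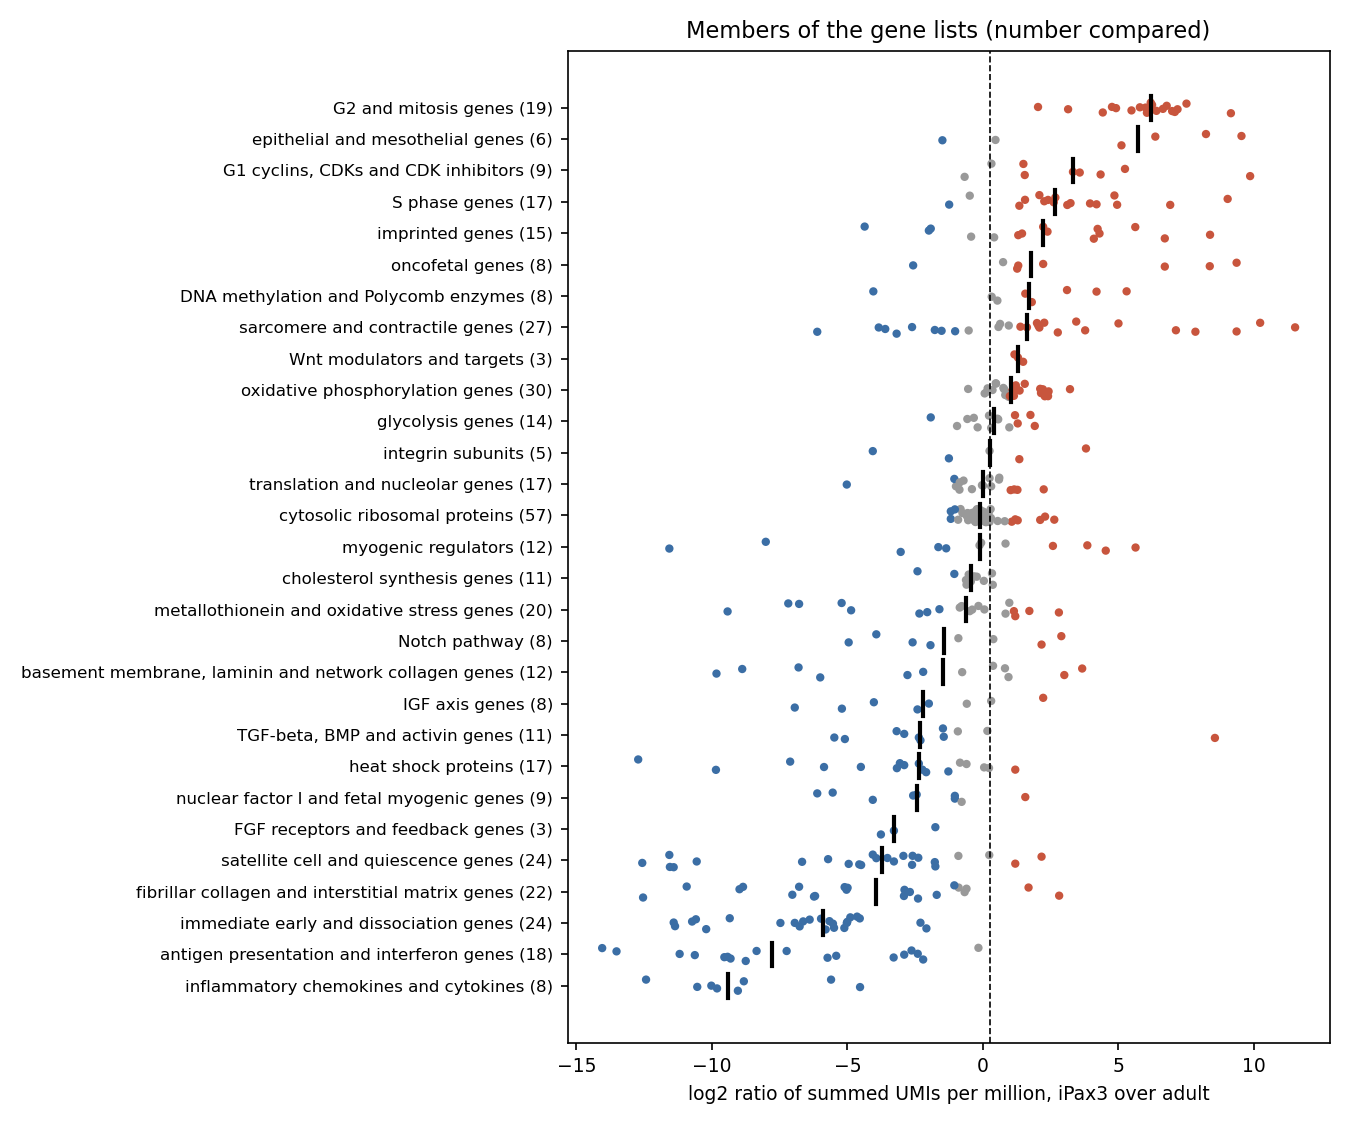
Log2 ratio of summed CPM, iPax3 over adult, for each compared member of 29 gene lists with 3 or more such members (points, red from 1 upward, blue from -1 downward, grey between; black bars: list medians; dashed line: median of all 4472 genes, 0.26). Medians run from -9.42 for chemokines and cytokines to 6.20 for G2 and mitosis genes.

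Ribosomal protein and translation genes had medians near 0. Of 57 cytosolic ribosomal protein genes, 48 were within 2-fold, at a median log2 ratio of -0.09, and ribosomal protein genes took 38.1% of adult and 38.3% of iPax3 UMIs. Translation and nucleolar genes had a median of 0.01 (-0.19 under median-of-ratios scaling), with 4 of 17 higher in iPax3 and 2 in adult cells. Oxidative phosphorylation genes were further toward iPax3: all 30 were compared, 16 higher in iPax3 and 0 in adult cells. Their median was 1.06, and it fell under 2-fold, to 0.86, with median-of-ratios scaling. The largest ratio was in the Rieske protein gene Uqcrfs1, at 22.3 and 207 CPM. The cytochrome c oxidase genes followed, with Cox5a at 257 and 1390 CPM and Cox7b at 144 and 770 CPM, while Cox4i1 was near equal at 2716 and 2843 CPM. Mitochondrially encoded genes took 3.79% of adult and 5.60% of iPax3 UMIs. Glycolysis genes had a median of 0.42, with 4 of 14 higher in iPax3, among them Gapdh (861 and 2922 CPM), and the glucose transporter Slc2a1 higher in adult cells (24.8 and 6.53 CPM).

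Of 11 cholesterol synthesis genes compared, 2 were higher in adult and 0 in iPax3 cells, at a median of -0.44, which was 0.25 with the second matrix as labelled. Among DNA methylation and Polycomb genes, 5 of 8 compared were higher in iPax3 cells, including the maintenance methyltransferase Dnmt1 (0.885 and 35.1 CPM), its partner Uhrf1 (1.64 and 30.2 CPM) and the Polycomb methyltransferase Ezh2 (5.44 and 47.0 CPM). The demethylase Tet2 was on the adult side, at 47.2 and 2.86 CPM.

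The largest differences in the share of cells toward iPax3 at equal depth were in broadly expressed genes. The histone variant H2afj had a UMI in 3.45% of adult and 94.4% of iPax3 cells, the heterochromatin protein Cbx3 in 2.88% and 86.8%, the myristoyltransferase Nmt1 in 12.7% and 98.5%, and the acetyltransferase subunit Naa15 in 16.9% and 90.7%. In bulk iPax3 libraries Nmt1 averaged 188 ± 6.19 CPM and H2afj 19.3 ± 3.13 CPM (SD, n = 3), against 978 and 778 CPM in the iPax3 cells.

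The iPax3 cells varied in differentiation genes, among others. Variance over cells at 4600 UMIs, relative to that of 1 profile shared by all cells, was highest for the nuclear noncoding RNA Malat1 (49.0), then for the muscle genes Mylpf (16.8), Tnnc2 (11.3) and Actc1 (9.89), the calcium-binding S100a6 (9.08) and H19 (9.04), with a median of 1.11 over 906 genes. If every cell drew its UMIs from 1 shared profile, 98.0% of iPax3 cells would hold a UMI of the fast myosin light chain Mylpf at 4600 UMIs, and 68.3% did. For Actc1 these shares were 89.6% and 55.0%, for Tnnc1 85.5% and 57.8%, for Myog 49.4% and 32.5%, and for Mstn 56.1% and 30.9%. Cells without such UMIs were thus more frequent than sampling from 1 fixed profile would give, and the reason was not tested. In the deeper suffix 2 barcodes, Mylpf had a UMI in 100% and Actc1 and Tnnc1 in 99.9% of cells. Pax3 (56.9% from 1 profile, 48.5% observed) and Cdkn2a (80.2% and 74.9%) were nearer to even. Myocyte markers passed 5 times their median of 3 UMIs in 503 of 2925 cells (17.2%).

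Cells with a Myog UMI at equal depth, 950 of 2925, differed from the other 1975 in both programmes. Embryonic myosin Myh3 was found in 56.1% of Myog cells (52.9 to 59.3%) and 21.2% of the others (19.4 to 23.1%), Mef2c in 53.2% and 16.9%, and Mstn in 53.7% and 20%. The reverse held for Ccnd1 (48.3% and 73.2%), Hmga2 (41.4% and 59.4%), Krt8 (39.9% and 55.6%) and Cdkn2a (64.8% and 79.8%). Shares of Mki67 (20.7% and 21.6%) and Top2a (49.8% and 47.6%) had overlapping intervals. Pax3 was in 54.4% and 45.6%, Myod1 in 22.8% and 8.25%, and Myf5 in 4.11% and 6.58%. Absence of a UMI in a cell does not show absence of the transcript, and these shares describe cells of 1 library.

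**Figure D5:**
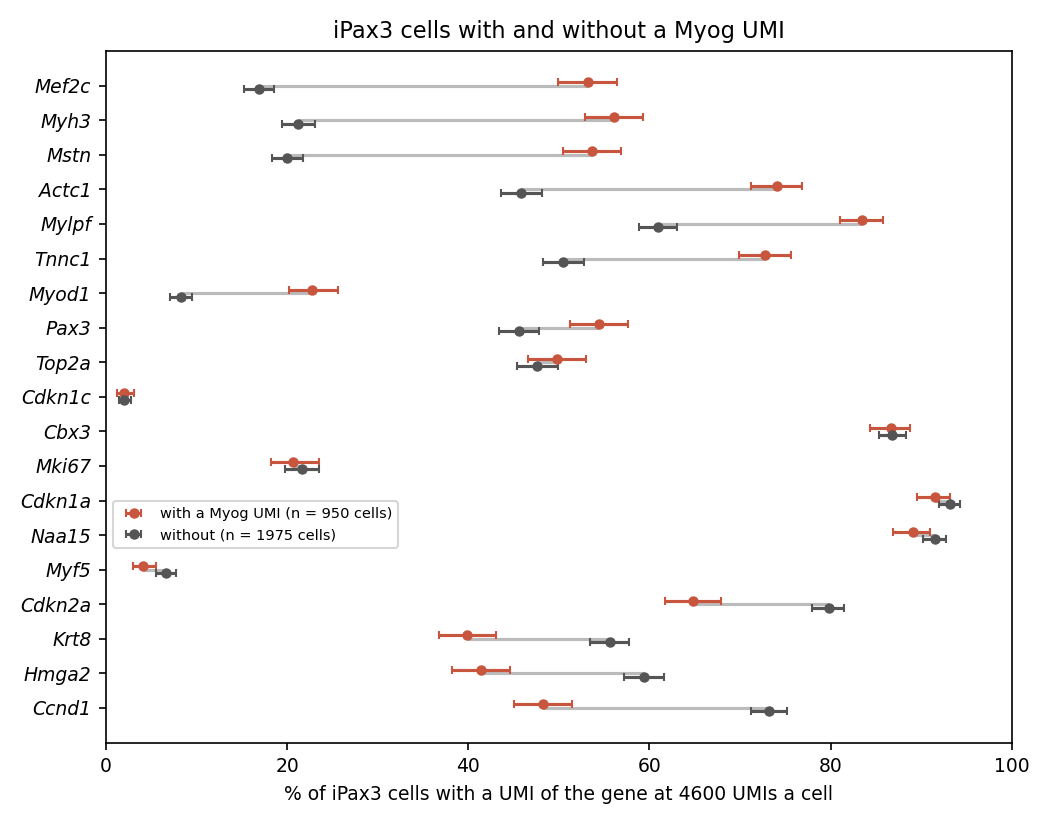
Share of iPax3 cells with a UMI of each of 19 genes at 4600 UMIs a cell, for 950 cells with and 1975 without a Myog UMI (points with 95% intervals). Mef2c, Myh3 and Mstn are above 50% in Myog cells and at or under 21.2% in the others, and Ccnd1 shows the reverse at 48.3% and 73.2%.

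In adult cells the progenitor factors Pax7 and Myf5 were near the shares that 1 profile gives. Pax7 had a UMI in 44.7% of thinned adult cells, where 1 shared profile gives 46.6%, and Myf5 in 17.5%, where it gives 17.8%. Myod1 departed further, at 48.2% observed and 63.6% from 1 profile. Pax7 was found in 46.2% of adult cells with a Myod1 UMI (39.9 to 52.6%) and in 43.3% of those without (37.3 to 49.5%). The leukocyte adaptor Tyrobp was in 60.2% and 64.4% of the same cells and H2-Ab1 in 93.6% and 94.1%. Variance over cells, relative to that of 1 shared profile, was highest in adult cells for Dcn (14.4), Gsn (12.8) and the fibre genes Acta1 (12.1) and Mylpf (8.53), with a median of 1.08 over 874 genes. Few cells carried an excess: 20 of 521 passed 5 times the median of fibroblast markers, 14 that of endothelial, 7 that of macrophage and 0 that of muscle progenitor markers.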

How the data were processed

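The deposited matrices hold UMI counts per gene and barcode for every listed barcode, made by the authors with CASAVA 1.8 and Cell Ranger 2.2.0 on mm10, per the submitters' processing notes. The libraries used a 10X Chromium 3' kit, per the labels' protocols. The annotation release is not given in the sources used here. The other deposited columns list barcodes and gene names. Bulk iPax3 read counts, made by the authors with HISAT2 2.0.2 and featureCounts 1.4.6 per the same notes, had totals of 38798892 to 56275318 and were used as CPM only. Of 28692 gene identifiers, 28339 matched GENCODE M21, which gave positions.

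UMIs were summed over cells and compared as ratios, with exact Poisson intervals for levels and exact binomial intervals for ratios and shares, at 95%. A gene with 0 UMIs was set to 3 UMIs over all cells of its sample. Genes were named by rule: 5 regulators, the 15 largest ratios each way with at least 100 CPM in 25% of cells, the 10 largest differences in thinned shares each way, and up to 6 members a list by ratio. Other genes in the text were picked after their values were seen, from the lists, the marker lists or the cells with and without a Myog or Myod1 UMI. The rule, the 31 gene lists and the 15 marker lists were chosen with earlier results of these data known. Doublets were not removed. Thinning was random with a fixed seed. Ratios and thinning were tested on simulated counts. The tools were matplotlib 3.10.9, scipy 1.17.1, numpy 2.4.6 and pandas 2.3.3 under Python 3.11.15. The deposited differential expression tables of single-cell clusters were not used.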

Additional observations from a re-analysis of the deposited data

How the results depend on the processing

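No paired analysis was possible because each side had 1 library and no test was made. With every gene of at least 1 UMI compared, 4500 genes were at least 2-fold higher in iPax3 and 6837 in adult cells, and with a minimum of 50 CPM 737 and 620. Both counts from 50 CPM come from fewer genes (2254). Under the other cell rules, weights and scalings and with the second matrix, the counts stayed within 1.5 times of 1460 and 1172. These settings were 2000 UMIs a cell, under 5% mitochondrial UMIs, equal weight per cell, thinned cells, median-of-ratios scaling, totals without mitochondrial and ribosomal genes, no cells in the top 5% by UMIs, adult cells with Pax7, Myf5 or Myod1, and 3 uses of the second matrix. The comparisons with the second matrix split by suffix were chosen after seeing the data. Of 177 named genes past 2-fold, 171 to 177 stayed past it in each of these settings and 0 changed direction. Those lost were Cyp51, Peg3, Ctnnb1, Pgam2, Eif4a1, Tcf7l2, Npm1, Ran, Pgam1, Myf5, Rpl37 and Rps21, each in at least 1 setting, Myf5 with the second matrix as labelled and with its suffix 2 against adult cells. Most named genes were chosen for large differences in these same cells, and the second matrix repeats their barcodes. That they kept their side was thus largely set by the choice and does not show that a new library would repeat it. Medians of 3 lists near 0 changed sign with the setting: myogenic regulators (-0.29 to 0.59), translation genes (-0.19 to 0.27) and cholesterol synthesis genes (-0.64 to 0.25). Leaving out adult cells with 3 or more markers of another cell type left 0 cells, so this setting gave no value. With 1 library a side, spread between animals or cultures is unknown, and a gene with 0 UMIs may have stood at up to 0.379 CPM in adult or 0.0721 CPM in iPax3 cells.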
